A study of Danio rerio with 12 samples.

Results

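The genes of translation initiation and elongation factors were followed in sorted tumor cells of zebrafish treated with the bromodomain inhibitor JQ1. They were chosen by name alone, as all zebrafish genes whose symbol starts with eif1 to eif6 or with eef1 or eef2, case ignored. The rule found 84 genes among the 25607 zebrafish genes of the count table, of which 23608 had a symbol. Of the 84 genes, 78 had at least 1 count in each of the 12 libraries, and *eef1a1l3* and *EIF2AK4* had none in any. Where 2 genes carry the same symbol, the Ensembl identifier is given beside it.

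All 12 libraries came from *lck*:*IRF4* zebrafish with tumors, in which the zebrafish *lck* promoter drives human *IRF4* and the red reporter mCherry. The paper reports that this promoter is active in T cells and B cells. The study's methods give an age of 10 months, and the labels describe the 3 replicates of a group as independent animals. Fish were kept in water with 4 μM JQ1, which blocks the binding of BET bromodomain proteins to acetylated histones, or with the same amount of its solvent DMSO. The 4 groups of 3 libraries were JQ1 at day 1, DMSO at day 1, JQ1 at day 3 and DMSO at day 3, and mCherry-positive cells were sorted for RNA sequencing. The sort was on the transgene's own reporter, all groups carry the transgene, and each library is 1 animal with its own tumor. In such sorted bulk samples, fewer cells of a type and less RNA per cell cannot be told apart.

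In eukaryotic initiation, eIF2 bound to GTP carries the initiator tRNA to the small ribosomal subunit, and the exchange factor eIF2B recharges eIF2 after each round. eIF1, eIF1A, eIF3 and eIF5 join them on the small subunit, while eIF4F, made of the cap-binding protein eIF4E, the scaffold eIF4G and the helicase eIF4A, brings in the mRNA. After the start codon is found, eIF5B helps the large subunit to join. In elongation, eEF1A delivers aminoacyl-tRNAs, the eEF1B subunits recharge it, eEF2 moves the ribosome along the mRNA, and eIF5A helps at sequences where the ribosome stalls. The kinases of eIF2 and the eIF4E-binding proteins slow initiation under stress or low nutrient supply, and in T cells the demand for translation rises when cells grow and divide.

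Levels are in counts on a gene per 1e6 counts on zebrafish genes (CPM) after scaling by TMM factors, which assume that most genes do not change. Zebrafish genes held 11298503 to 11794147 counts per library in JQ1 at day 1, 11760990 to 12680970 in DMSO at day 1, 11787424 to 12771912 in JQ1 at day 3 and 8176139 to 12440426 in DMSO at day 3. ERCC RNAs, synthetic transcripts added by cell number, gave a log2 ratio of gene counts to ERCC counts of 5.06 ± 0.83 in JQ1 at day 1, 6.65 ± 0.16 in DMSO at day 1, 5.87 ± 0.15 in JQ1 at day 3 and 6.52 ± 0.15 in DMSO at day 3 (SD, n = 3 each). The 4 T-cell marker genes (*lck*, *lat*, *themis*, *bcl11ba*; 1 of 4 lower at day 3 at an adjusted p of 0.05) were found in each library and summed to 502 to 1807 CPM in JQ1 and 2758 to 3658 CPM in DMSO at day 3. Genes of T-cell stages (*rag1*, *rag2*, *cd4-1*, *cd8a*, *cd8b*; 4 of 5 lower) summed to 64.2 to 188 CPM in JQ1 and 432 to 1738 CPM in DMSO, and B-cell genes (0 of 3 passed) to 39.4 to 87.8 CPM in JQ1 and 6.84 to 90.4 CPM in DMSO, both at day 3. Other marker lists differed as well at day 3. Proliferation genes (5 of 5 lower) summed to 663 to 766 CPM in JQ1 and 2735 to 4832 CPM in DMSO, and germ cell genes (6 of 9 higher) to 176 to 1218 CPM in JQ1 and 24.6 to 55.3 CPM in DMSO. Macrophage genes (2 of 4 higher) summed to 269 to 1578 CPM in JQ1 and 27.9 to 134 CPM in DMSO, and epithelial genes (4 of 4 higher) to 234 to 601 CPM in JQ1 and 8.10 to 52.5 CPM in DMSO. None of these lists held a gene at 0 in all libraries, and their part in the results was not tested.

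At day 3, translation factor genes were mostly lower in JQ1 than in DMSO. Of the 79 genes with enough counts to test, 21 were lower and 5 were higher at a Benjamini-Hochberg adjusted p of 0.05 by edgeR's quasi-likelihood test, adjusted over all genes tested. Over all 16271 genes tested, 9.91% were lower and 15.3% were higher, against 26.6% and 6.33% of the translation factor genes. The median log2 fold change, JQ1 over DMSO, was −0.67 for the translation factor genes and 0.05 for all genes, and 64 of 79 lay below 0 (48.7% of all genes did). The 3 JQ1 libraries were all below the 3 DMSO libraries in 48 of 79 genes and all above in 5, against 26.5% and 24.8% of all genes tested. Fitted against the ERCC counts in place of TMM factors, 48 genes were lower and 5 higher with a median log2 fold change of −1.11 (all genes, −0.38, with 23.5% lower and 11.3% higher). DESeq2 called 28 lower and 5 higher (12.6% and 23% of all genes) with its own size factors and 53 lower and 5 higher (25.3% and 17%) with ERCC size factors.

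These counts depended on single libraries. Without any one of the DMSO libraries, no gene passed the threshold in edgeR, among the translation factors or among all genes, and at an unadjusted p of 0.05 there were 5 higher and 25 to 36 lower translation factor genes (5 higher and 38 lower with all 6 libraries, against 25% and 18.6% of all genes). Without JQ1 replicate 2 there were 1 higher and 3 lower, and all genes tested dropped to 376 higher and 371 lower. Without JQ1 replicate 1 there were 3 higher and 17 lower. Shares over all genes are not given here for that fit, nor for the unadjusted counts without a DMSO library. Such counts show only how far the numbers moved. The median log2 fold change of the translation factor genes was −0.82 without JQ1 replicate 1 (all genes, 0.07). Without JQ1 replicate 2 it was −0.52 (all genes, 0.03). All 26 called genes kept their direction in each alternative fit. JQ1 replicate 2 was the lowest of the 6 libraries in 19 of the 21 genes that fell and in 53 of all 79. It also had the lowest T-cell and the highest macrophage and germ cell marker sums of the day 3 libraries, and the lowest transgene level, with 630 CPM for *IRF4* and mCherry together against 5683 and 4093 CPM in the other JQ1 libraries and 12358, 6876 and 8629 CPM in the DMSO libraries. The part of these differences in the results was not tested.

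**Figure D1:**
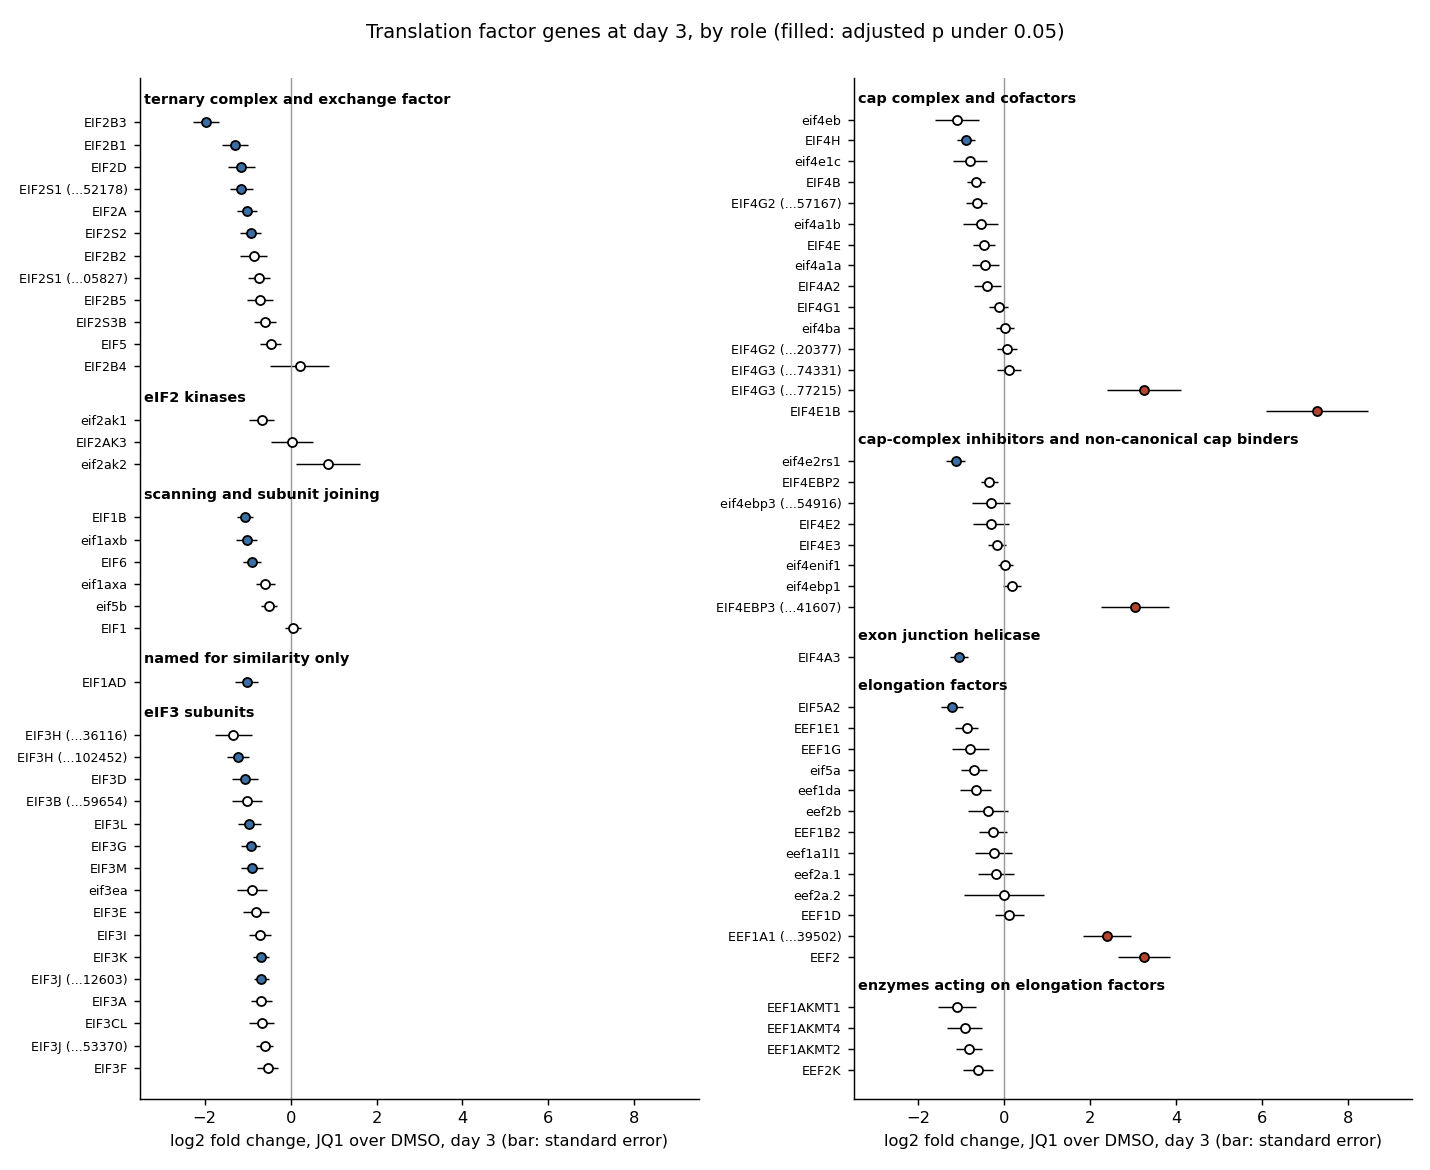
Log2 fold change, JQ1 over DMSO at day 3, of the 79 translation factor genes tested (x axis, with the standard error as a bar), grouped by role down the y axis. Filled points passed an adjusted p of 0.05, blue for the 21 lower and red for the 5 higher genes; all 16 eIF3 subunits lie left of 0. The fitted value of EIF4E1B, which had no counts in DMSO at day 3, depends on the prior count.

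Of the 12 genes tested for eIF2, its exchange factor eIF2B and their partners, 6 were lower at day 3 (11 by ERCC scaling), none was higher, and the median log2 fold change was −0.90. Over all genes tested, 9.91% were lower and 15.3% higher (23.5% and 11.3% by ERCC scaling). *EIF2B3*, the gamma subunit of eIF2B, fell most of all translation factor genes. It had 11.2, 7.96 and 15.3 CPM in the JQ1 libraries, against 39.6, 46.5 and 53.6 CPM in the DMSO libraries (log2 fold change −1.96, SE 0.30, adjusted p = 0.0215). The highest JQ1 library was below the lowest DMSO library by more than the range of either group. *EIF2B1*, the alpha subunit of eIF2B through which phosphorylated eIF2 is sensed, had 10.2, 7.21 and 6.49 CPM in the JQ1 libraries, against 19.7, 23.4 and 17.8 CPM in the DMSO libraries (log2 fold change −1.29, SE 0.31, adjusted p = 0.0308). The groups did not overlap in this gene either, and DMSO replicate 2 was the highest library. The JQ1 libraries were all below the DMSO libraries in 26.5% of all genes tested. Because *EIF2B3* and *EIF2B1* were picked among genes that passed, their separation adds no support. *EIF2B2* and *EIF2B5* had log2 fold changes of −0.86 (adjusted p = 0.0790) and −0.72 (adjusted p = 0.111), while *EIF2B4* had 0.21 (adjusted p = 0.832) with a wide range among libraries.

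The alpha subunit of eIF2, the target of the eIF2 kinases, is annotated at 2 genes. *EIF2S1* (ENSDARG00000052178) had 177, 105 and 147 CPM in the JQ1 libraries, against 312, 266 and 407 CPM in the DMSO libraries (log2 fold change −1.14, SE 0.27, adjusted p = 0.0308). Its JQ1 libraries were all below the DMSO libraries, as in 26.5% of all genes tested. *EIF2S1* (ENSDARG00000005827) had a log2 fold change of −0.74 (adjusted p = 0.0707) and did not pass. The beta subunit *EIF2S2* fell with a log2 fold change of −0.93 (adjusted p = 0.0331), and the gamma subunit *EIF2S3B* had −0.59 (adjusted p = 0.120). *EIF2D* and *EIF2A*, which can place initiator tRNA on the ribosome outside the usual route, both fell. *EIF2D* had 13.5, 9.97 and 20.4 CPM in the JQ1 libraries, against 35.6, 30.7 and 34.7 CPM in the DMSO libraries (log2 fold change −1.15, SE 0.31, adjusted p = 0.0385). *EIF2A* had a log2 fold change of −1.01 (adjusted p = 0.0308). *EIF5*, the GTPase activator of eIF2, had a log2 fold change of −0.46 (adjusted p = 0.186).

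None of the 3 eIF2 kinase genes tested passed at day 3 with TMM or ERCC scaling, and their median log2 fold change was 0.04. *EIF2AK3* (PERK), which responds to unfolded protein in the endoplasmic reticulum, had a log2 fold change of 0.04 (adjusted p = 0.961). *eif2ak1*, the heme-regulated kinase, had 12.8, 15.7 and 10.7 CPM in JQ1, against 22.7, 16.9 and 25.6 CPM in DMSO (log2 fold change −0.67, SE 0.30, adjusted p = 0.126). The JQ1 libraries of *eif2ak1* were all below the DMSO libraries, as in 26.5% of all genes tested. *eif2ak2*, the kinase activated by double-stranded RNA, had 10.2, 5.64 and 40.5 CPM in JQ1, against 6.72, 15.9 and 9.30 CPM in DMSO (log2 fold change 0.87, SE 0.75, adjusted p = 0.398). JQ1 replicate 3 was far above the other libraries, and without it the log2 fold change was −0.42.

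Of the 6 genes for scanning and subunit joining, 3 were lower (5 by ERCC scaling) and none higher, with a median log2 fold change of −0.74. The shares over all genes were 9.91% lower (23.5% by ERCC scaling) and 15.3% higher. *EIF1B*, an eIF1 that guards the choice of start codon, had 84.5, 75.2 and 97.5 CPM in the JQ1 libraries, against 178, 193 and 187 CPM in the DMSO libraries (log2 fold change −1.06, SE 0.18, adjusted p = 0.0227). Its libraries varied little within a group. *eif1axb*, an eIF1A gene, fell with a log2 fold change of −1.02 (adjusted p = 0.0308), and its paralog *eif1axa* had −0.59 (adjusted p = 0.0880). *EIF6*, which keeps free large subunits from joining, had 47.0, 30.2 and 39.1 CPM in the JQ1 libraries, against 75.5, 78.2 and 71.5 CPM in the DMSO libraries (log2 fold change −0.90, SE 0.21, adjusted p = 0.0308). Its JQ1 libraries were all below the DMSO libraries, as in 26.5% of all genes tested. *EIF1* and *eif5b* had log2 fold changes of 0.05 (adjusted p = 0.858) and −0.50 (adjusted p = 0.0852). *EIF1AD*, which shares a domain with eIF1A and is not counted among these 6, had a log2 fold change of −1.02 (adjusted p = 0.0350).

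eIF3 is the largest initiation factor and the platform on the small subunit that binds eIF4G and the other factors. Of its 17 annotated genes, 16 could be tested, and *EIF3B* (ENSDARG00000074213) had too few counts. At day 3, 7 of the 16 were lower, none was higher and all 16 had a log2 fold change below 0, with TMM, RLE and ERCC scaling alike, and a median log2 fold change of −0.85. The 3 JQ1 libraries were below the 3 DMSO libraries in all 16, and 14 were lower at an unadjusted p of 0.05. By ERCC scaling all 16 passed as lower (median −1.29). Of all genes tested, 9.91% were lower, 18.6% were at an unadjusted p of 0.05, and 23.5% were by ERCC scaling. In 26.5% of all genes the JQ1 libraries were all below the DMSO libraries. Without any one of the DMSO libraries or without JQ1 replicate 2 no subunit passed, without JQ1 replicate 3 there was 1 and without JQ1 replicate 1 there were 8, and all 16 stayed below 0. The median log2 fold change was −0.70 without JQ1 replicate 2 and lower in the other 5 fits.

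*EIF3H* (ENSDARG00000102452) fell most among the subunits that passed, with 169.8, 121 and 146 CPM in the JQ1 libraries, against 460.0, 298 and 301 CPM in the DMSO libraries (log2 fold change −1.22, SE 0.26, adjusted p = 0.0267). DMSO replicate 1 stood above the other DMSO libraries. *EIF3D*, which contacts the mRNA cap on some mRNAs, had 841, 458 and 645 CPM in the JQ1 libraries, against 1520.3, 1145 and 1524 CPM in the DMSO libraries (log2 fold change −1.05, SE 0.30, adjusted p = 0.0442). JQ1 replicate 2 was lowest in *EIF3D* and in 14 of the 16 subunits. The other subunits that fell were *EIF3L* (−0.96), *EIF3G* (−0.93), *EIF3M* (−0.90), *EIF3K* (−0.70) and *EIF3J* (ENSDARG00000012603) (−0.68), with log2 fold changes in parentheses. Among those that did not pass, the core subunits *EIF3A*, *EIF3CL* and *EIF3I* had log2 fold changes of −0.68 (adjusted p = 0.0725), −0.67 (adjusted p = 0.122) and −0.71 (adjusted p = 0.0773), and *EIF3B* (ENSDARG00000059654) had −1.01 (adjusted p = 0.0682). For *EIF3E*, *eif3ea*, *EIF3F* and *EIF3J* (ENSDARG00000053370) the log2 fold changes were −0.81 (adjusted p = 0.0904), −0.89 (adjusted p = 0.0923), −0.54 (adjusted p = 0.142) and −0.60 (adjusted p = 0.0677). The second gene for subunit h, *EIF3H* (ENSDARG00000036116), had the lowest log2 fold change of the 16 and missed the threshold, at −1.33 (adjusted p = 0.0575).

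**Figure D2:**
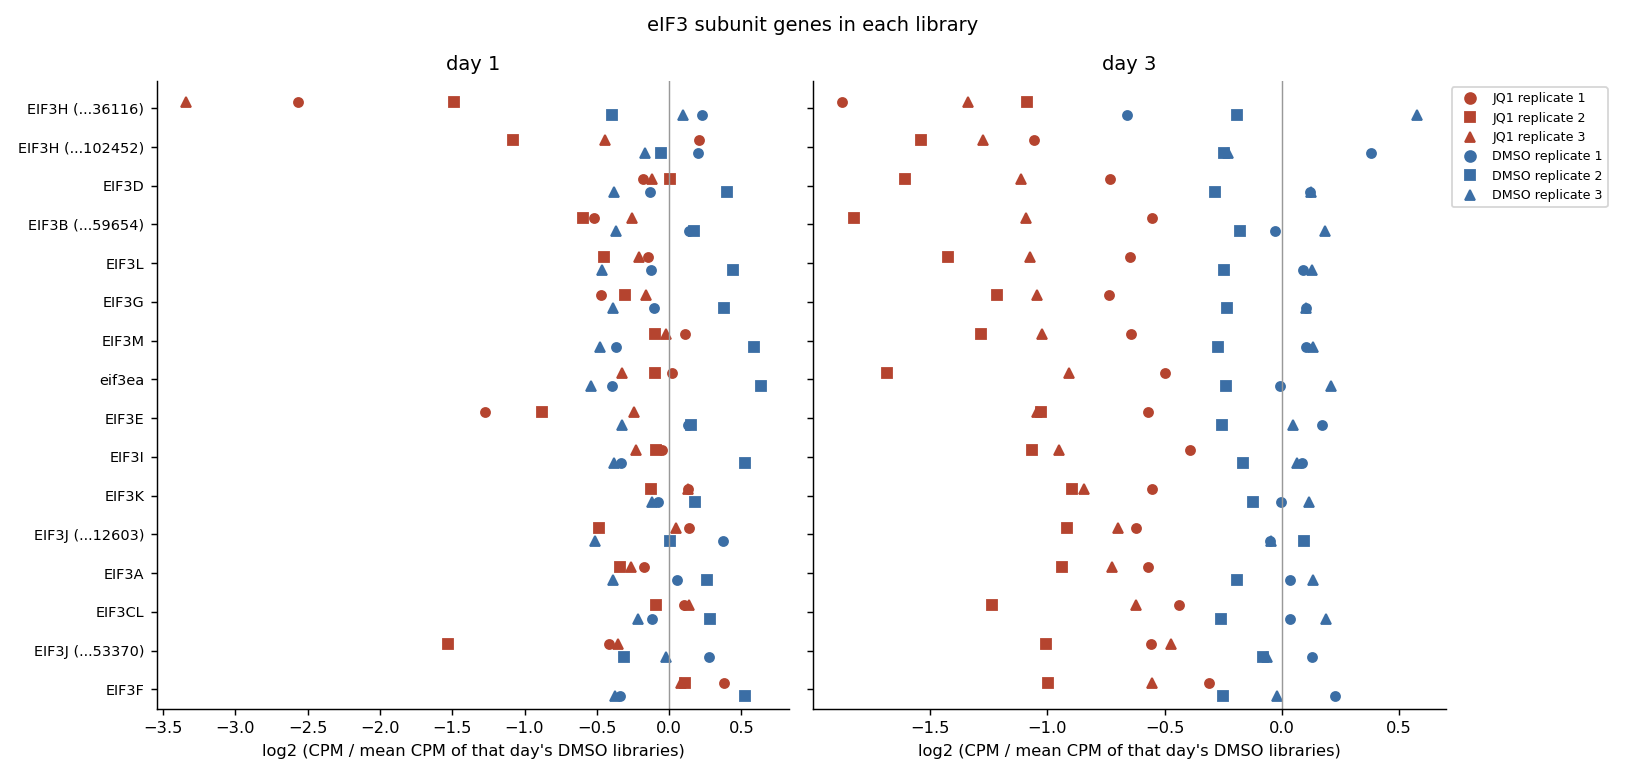
Level of each of 16 eIF3 subunit genes in each library, as log2 of its CPM over the mean CPM of the DMSO libraries of the same day (x axis), for day 1 on the left and day 3 on the right. JQ1 libraries are red and set just above the blue DMSO libraries of the same gene, and the marker shape gives the replicate. At day 3 all JQ1 points lie left of the DMSO points of their gene; at day 1 most genes overlap.

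The genes of the cap complex and its cofactors differed among themselves. Of 15 tested, 1 was lower (5 by ERCC scaling) and 2 were higher at day 3, with a median log2 fold change of −0.44. With TMM factors these are counts near the shares over all genes, 9.91% lower and 15.3% higher (23.5% lower by ERCC scaling). *EIF4H*, a cofactor of the helicase eIF4A, fell with a log2 fold change of −0.89 (adjusted p = 0.0291), and the related *EIF4B* had −0.65 (adjusted p = 0.0613). *eif4ba*, a paralog of *EIF4B*, had a log2 fold change of 0.01 (adjusted p = 0.983). The helicase genes *eif4a1a*, *eif4a1b* and *EIF4A2* had log2 fold changes of −0.44 (adjusted p = 0.303), −0.54 (adjusted p = 0.335) and −0.40 (adjusted p = 0.359), with groups that overlapped in each. The eIF4E genes *EIF4E*, *eif4eb* and *eif4e1c* had log2 fold changes of −0.47 (adjusted p = 0.199), −1.10 (adjusted p = 0.145) and −0.80 (adjusted p = 0.159). Of the eIF4G genes, *EIF4G1* had a log2 fold change of −0.13 (adjusted p = 0.661) and *EIF4G3* (ENSDARG00000074331) had 0.12 (adjusted p = 0.768). The eIF4G relatives *EIF4G2* (ENSDARG00000057167) and *EIF4G2* (ENSDARG00000020377) had log2 fold changes of −0.64 (adjusted p = 0.0894) and 0.06 (adjusted p = 0.871). The genes that were higher, a second *EIF4G3* and *EIF4E1B*, are described with the other risers.

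*EIF4A3*, a relative of eIF4A that sits in the exon junction complex and does not serve in initiation, had 120.1, 101 and 146 CPM in the JQ1 libraries, against 229, 302 and 263 CPM in the DMSO libraries (log2 fold change −1.05, SE 0.22, adjusted p = 0.0261). Of the 8 genes for eIF4E-binding proteins and atypical cap binders, 1 was lower (2 by ERCC scaling) and 1 higher, with a median log2 fold change of −0.24. Such counts are near the shares over all genes, 9.91% lower (23.5% by ERCC scaling) and 15.3% higher. *eif4e2rs1*, a relative of the cap binder eIF4E2, had 22.9, 16.4 and 21.9 CPM in the JQ1 libraries, against 43.8, 49.3 and 46.6 CPM in the DMSO libraries (log2 fold change −1.13, SE 0.22, adjusted p = 0.0244), and each group was tight. The mTORC1-controlled inhibitor genes *EIF4EBP2* and *eif4ebp1* had log2 fold changes of −0.35 (adjusted p = 0.219) and 0.19 (adjusted p = 0.521). *eif4enif1*, which carries eIF4E into the nucleus, had a log2 fold change of 0.03 (adjusted p = 0.920). *EIF4E2*, *EIF4E3* and *eif4ebp3* (ENSDARG00000054916) had log2 fold changes of −0.31 (adjusted p = 0.601), −0.17 (adjusted p = 0.548) and −0.32 (adjusted p = 0.608).

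Of the 13 elongation factor genes tested, 1 was lower (4 by ERCC scaling) and 2 were higher at day 3, and the median log2 fold change was −0.27. The counts with TMM factors are near the shares over all genes, 9.91% lower and 15.3% higher (23.5% lower by ERCC scaling). *eef1a1l1* and *eef2b*, the eEF1A and eEF2 genes that took most of the counts on translation factors, did not pass. *eef1a1l1* averaged 15618 ± 4184 CPM in JQ1 and 19261 ± 3975 CPM in DMSO (SD, n = 3 each; log2 fold change −0.25, SE 0.44, adjusted p = 0.687). *eef2b* averaged 12121 ± 4303 CPM in JQ1 and 16423 ± 4028 CPM in DMSO (SD, n = 3 each; log2 fold change −0.38, SE 0.46, adjusted p = 0.547). The groups overlapped in both. The eEF1B subunit genes *EEF1B2*, *eef1da*, *EEF1D* and *EEF1G* had log2 fold changes of −0.27 (adjusted p = 0.546), −0.67 (adjusted p = 0.198), 0.12 (adjusted p = 0.807) and −0.79 (adjusted p = 0.202). *EIF5A2* was the elongation factor gene that fell, with 409, 268 and 447 CPM in the JQ1 libraries, against 868, 933 and 917 CPM in the DMSO libraries (log2 fold change −1.22, SE 0.26, adjusted p = 0.0264). JQ1 replicate 2 was lowest and the highest JQ1 library lay far below the DMSO libraries. Its paralog *eif5a* had 1077, 886 and 1274 CPM in the JQ1 libraries, against 2215, 1326 and 1967 CPM in the DMSO libraries, and did not pass (log2 fold change −0.71, SE 0.30, adjusted p = 0.115). In *EIF5A2* and *eif5a* the JQ1 libraries were all below the DMSO libraries, as in 26.5% of all genes tested. *EEF1E1*, counted here by its symbol alone, had a log2 fold change of −0.88 (adjusted p = 0.0563). *eef2a.1* and *eef2a.2* had log2 fold changes of −0.19 (adjusted p = 0.755) and −0.0047 (adjusted p = 0.997). *EEF1A1* (ENSDARG00000069951) and *eef1a2* had 98 and 15 counts over all 12 libraries and could not be tested.

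None of the 4 genes for enzymes acting on elongation factors passed at day 3 with TMM factors, and their median log2 fold change was −0.87. *EEF2K*, the kinase that inactivates eEF2, had 40.6, 21.4 and 20.0 CPM in JQ1, against 54.8, 34.5 and 41.6 CPM in DMSO (log2 fold change −0.62, SE 0.35, adjusted p = 0.208). Its groups overlapped. The eEF1A lysine methyltransferase genes *EEF1AKMT1*, *EEF1AKMT2* and *EEF1AKMT4* had log2 fold changes of −1.11 (adjusted p = 0.102), −0.82 (adjusted p = 0.0838) and −0.92 (adjusted p = 0.130). In each the JQ1 libraries were all below the DMSO libraries, as in 26.5% of all genes tested. By ERCC scaling these 3 methyltransferase genes passed as lower, as did 23.5% of all genes.

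The 5 genes that were higher at day 3 had low levels in DMSO. *EEF2*, an eEF2 gene apart from *eef2b*, had 22.9, 49.3 and 10.05 CPM in the JQ1 libraries, against 3.27, 2.95 and 2.74 CPM in the DMSO libraries (log2 fold change 3.26, SE 0.61, adjusted p = 0.0240). *EIF4G3* (ENSDARG00000077215), an eIF4G gene, had 168, 92.2 and 14.5 CPM in the JQ1 libraries, against 12.3, 5.02 and 12.6 CPM in the DMSO libraries (log2 fold change 3.25, SE 0.86, adjusted p = 0.0371). The JQ1 libraries differed among themselves by several fold in both genes, and JQ1 replicate 3 was lowest in each. *EIF4EBP3* (ENSDARG00000041607), an eIF4E-binding protein gene, had 7.64, 56.1 and 14.8 CPM in the JQ1 libraries, against 2.499, 4.69 and 2.74 CPM in the DMSO libraries (log2 fold change 3.05, SE 0.79, adjusted p = 0.0362), and JQ1 replicate 2 stood above the rest. Without that library its log2 fold change was 1.80 and did not pass. *EEF1A1* (ENSDARG00000039502), an eEF1A gene, had 12.9, 14.7 and 13.1 CPM in the JQ1 libraries, against 4.74, 1.31 and 1.91 CPM in the DMSO libraries (log2 fold change 2.39, SE 0.55, adjusted p = 0.0291). Its JQ1 libraries were close to each other.

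*EIF4E1B*, an eIF4E gene known from oocytes, was nearly silent. It had 14, 38 and 18 counts in the JQ1 libraries, or 1.07, 2.38 and 1.42 CPM, against 0 counts in each DMSO library (adjusted p = 0.0257). It passed the filter on low counts only through the JQ1 libraries, where it was high, so no support is drawn from its call, and without it 4 genes were higher. Taking 3 counts per library as the floor, it was at least 4.89-fold higher in JQ1. The summed germ cell markers had 651, 1218 and 176 CPM in JQ1 replicates 1, 2 and 3. That order of libraries was also the order in *EEF2* and in the epithelial sums, which were 318, 601 and 234 CPM. Macrophage sums were 269, 1578 and 1256 CPM in the same replicates. *EIF4EBP3* (ENSDARG00000041607), *EEF1A1* (ENSDARG00000039502) and *EIF4E1B* had the order of the macrophage sums, and *EIF4G3* (ENSDARG00000077215) had neither order. The JQ1 libraries of this *EEF1A1* gene were close to each other. Orders of only 3 libraries coincide easily, so no support is drawn from any of them. Epithelial and macrophage genes were also higher in JQ1, with the ranges given with the other markers. Oocyte genes (0 of 2 tested passed) summed to 9.71 to 25.0 CPM in JQ1 and 4.31 to 7.86 CPM in DMSO at day 3. The 3 of the 5 without counts in DMSO, *zp2.1*, *GDF9* and *figla*, averaged only 0.996, 0.265 and 0.0928 CPM in JQ1. The part of these cell types in the rise of the 5 genes was not tested. With *EIF4E1B* at its floor, the median over the translation factor genes stayed −0.67.

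**Figure D3:**
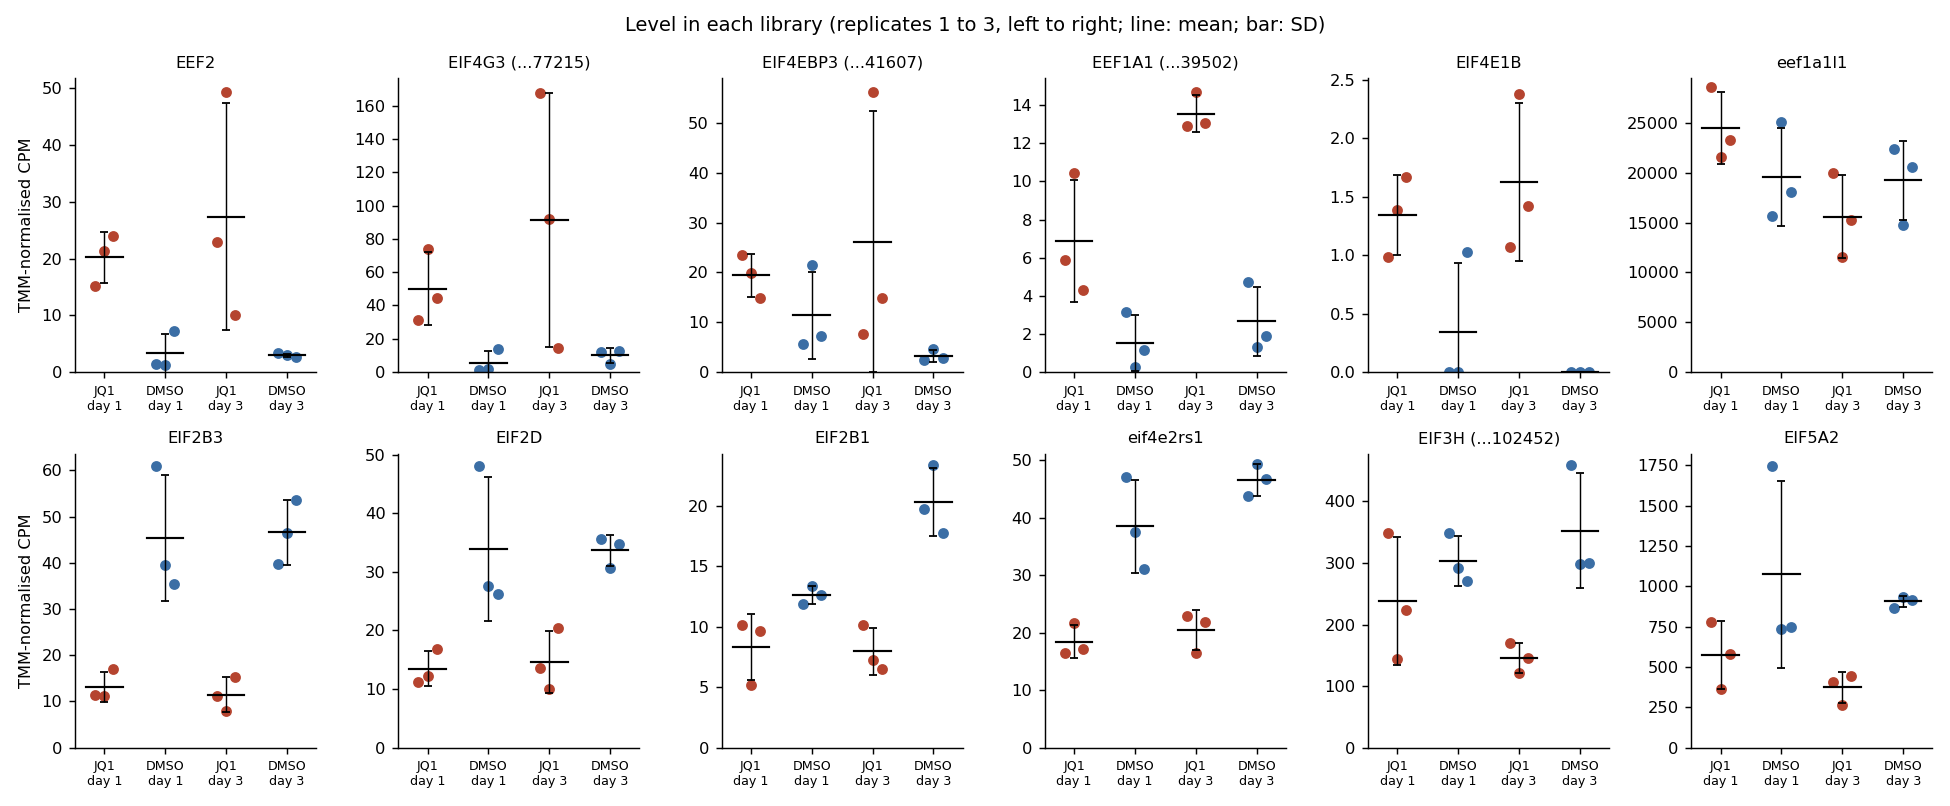
TMM-normalised CPM of 12 translation factor genes (y axis, from 0) in each library of JQ1 and DMSO at day 1 and day 3 (x axis), with points for replicates 1 to 3, a line for the mean and a bar for the SD. EEF2, EIF4G3 and EEF1A1 had day 3 means of 27.4, 91.4 and 13.5 CPM in JQ1, against 2.99, 9.98 and 2.65 CPM in DMSO, while EIF2B3 had 11.5 CPM in JQ1, against 46.6 CPM in DMSO.

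As a share of all zebrafish gene counts, the 84 genes took 4.84 ± 1.09% in JQ1 and 5.68 ± 0.76% in DMSO at day 3 (SD, n = 3 each), and the groups overlapped. *eef1a1l1* and *eef2b* together made up most of this, with 3.13 ± 0.80% in JQ1 and 3.33 ± 0.58% in DMSO. The other genes took 2.02, 1.44 and 1.68% in the JQ1 libraries, against 2.47, 2.15 and 2.45% in the DMSO libraries. For these the groups did not overlap at day 3, and JQ1 replicate 2 was again lowest. Set against the ERCC counts, the log2 ratio of all translation factor counts to ERCC counts was 1.88, 1.25 and 1.29 in JQ1, against 2.65, 2.004 and 2.47 in DMSO at day 3. All 3 JQ1 libraries lay below the DMSO libraries on that scale, and the same held for all zebrafish genes together. Their log2 ratio to ERCC counts was 5.94, 5.96 and 5.69 in JQ1, against 6.68, 6.38 and 6.51 in DMSO at day 3. At day 1 the 84 genes took 6.66 ± 0.50% in JQ1 and 6.24 ± 0.70% in DMSO (SD, n = 3 each).

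**Figure D4:**
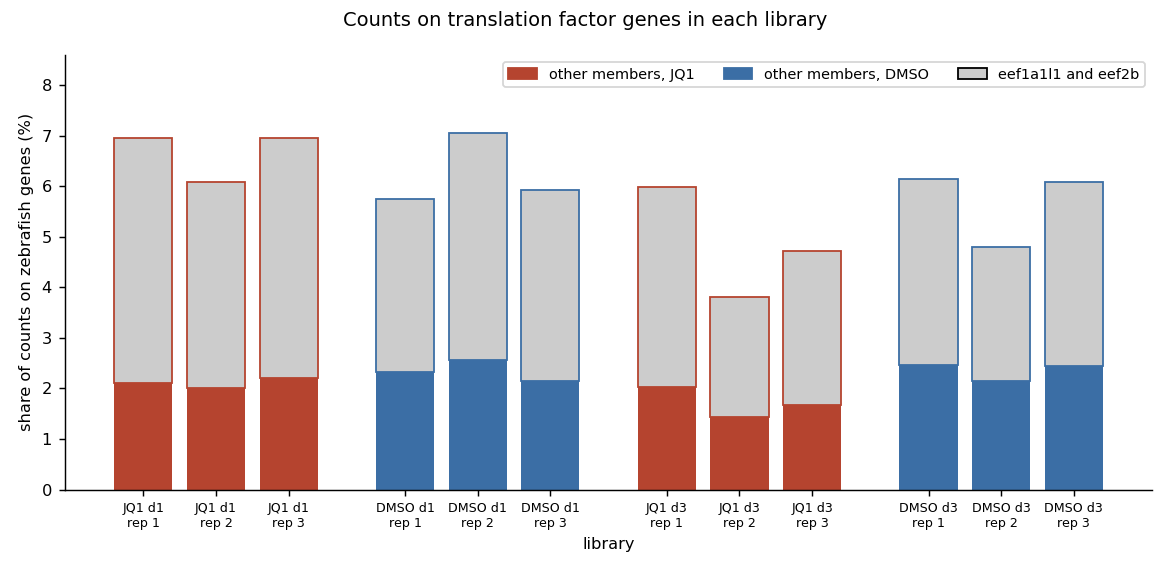
Percent of all zebrafish gene counts taken by translation factor genes in each library of JQ1 and DMSO at day 1 and day 3, split into eef1a1l1 with eef2b and all others. At day 3 the others took 1.71% in JQ1 and 2.35% in DMSO on average, and all 3 JQ1 libraries were below the DMSO libraries.

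At day 1, none of the 79 translation factor genes tested passed in edgeR, and of 15813 genes 0.0443% were higher and none was lower. At an unadjusted p of 0.05, 3 translation factor genes were higher and 7 lower, against 12.3% and 10% of all genes. DESeq2 called 2 higher and 4 lower, against 7.73% and 3.83% of all genes, and with ERCC size factors 0 higher and 58 lower, against 1.7% and 47.4%. The median log2 fold change was −0.19 (all genes, 0.00), and 54 of 79 lay below 0 (49.8% of all genes did). The JQ1 libraries were all above the DMSO libraries in 4 genes and all below in 12, against 16.3% and 14.8% of all genes. Without DMSO replicate 3 of day 1, 3 were higher and 3 lower, and all genes gave 1191 higher and 400 lower. Macrophage genes summed to 598 CPM and proliferation genes to 1099 CPM in that library, against 30.8 and 73.0 CPM and 2731 and 2179.6 CPM in the other DMSO libraries of day 1, and their part in the result was not tested. By ERCC scaling 33 genes were lower and none higher, with a median log2 fold change of −1.63, against a median of −1.51 and 37.6% lower and 1.57% higher over all genes. The ERCC counts of the JQ1 libraries at day 1 ranged from 183496 to 527562, a wider spread than in the other groups.

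The lowest p-values at day 1 belonged to *EIF2B3*, *EIF3H* (ENSDARG00000036116) and *EIF2D*. *EIF2B3* had 11.3, 11.1 and 16.9 CPM in the JQ1 libraries, against 60.8, 39.6 and 35.5 CPM in the DMSO libraries (log2 fold change −1.77, SE 0.34, adjusted p = 0.0618). *EIF3H* (ENSDARG00000036116) had 2.55, 5.39 and 1.49 CPM in the JQ1 libraries, against 17.7, 11.5 and 16.1 CPM in the DMSO libraries (log2 fold change −2.25, SE 0.55, adjusted p = 0.0848). *EIF2D* had 11.3, 12.2 and 16.8 CPM in the JQ1 libraries, against 48.1, 27.6 and 26.2 CPM in the DMSO libraries (log2 fold change −1.32, SE 0.36, adjusted p = 0.0986). The JQ1 libraries were all below the DMSO libraries in each of the 3 genes, as in 14.8% of all genes, although none passed the adjusted threshold with TMM factors. Because the 3 genes were picked by p-value, this separation adds no support. By ERCC scaling all 3 passed as lower, with log2 fold changes of −3.39, −3.82 and −2.95. *EEF2* had 15.2, 21.4 and 24.0 CPM in the JQ1 libraries, against 1.39, 1.15 and 7.26 CPM in the DMSO libraries at day 1 (log2 fold change 2.62, SE 0.75, adjusted p = 0.108). *EIF4G3* (ENSDARG00000077215) had 31.0, 74.0 and 44.7 CPM in the JQ1 libraries, against 1.22, 1.73 and 13.9 CPM in the DMSO libraries (log2 fold change 3.14, SE 0.94, adjusted p = 0.120). In both genes DMSO replicate 3 was the highest DMSO library and still below all JQ1 libraries. The JQ1 libraries were all above the DMSO libraries in 16.3% of all genes tested at day 1. *EEF1A1* (ENSDARG00000039502) had a log2 fold change of 2.17 (adjusted p = 0.191). By ERCC scaling these *EEF2*, *EIF4G3* and *EEF1A1* genes had log2 fold changes of 1.02, 1.52 and 0.58 at day 1, and none passed. Germ cell genes summed to 288 to 550 CPM in JQ1 and 30.0 to 42.5 CPM in DMSO at day 1, and epithelial genes to 544 to 1377 CPM in JQ1 and 5.28 to 61.0 CPM in DMSO, and their part in these values was not tested.

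**Figure D5:**
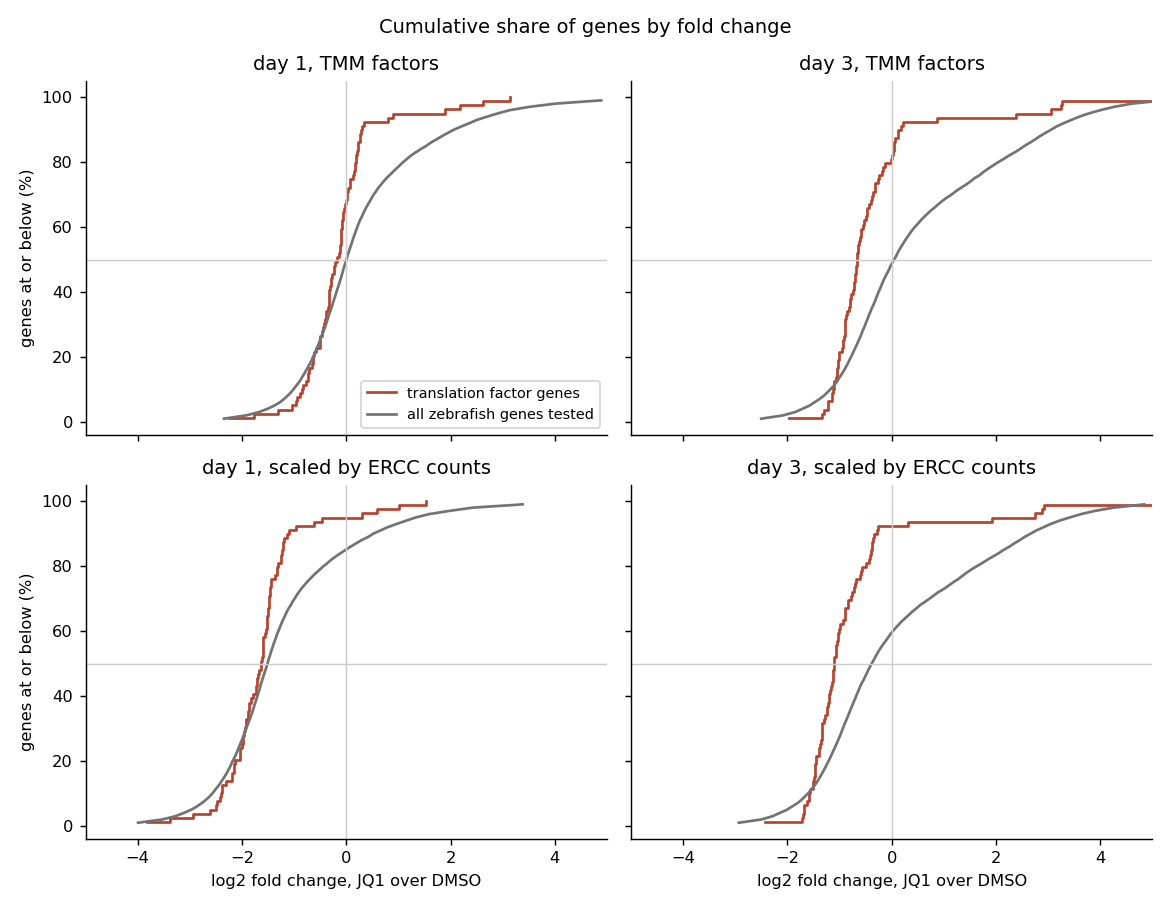
Cumulative percent of genes (y axis) at or below each log2 fold change, JQ1 over DMSO (x axis), for the translation factor genes tested and for all zebrafish genes tested, at day 1 and day 3, with TMM factors above and ERCC scaling below. At day 3 the translation factor genes had medians of −0.67 against 0.05 for all genes by TMM factors, and −1.11 against −0.38 by ERCC counts. The curves cross in the lower tail. There 5% of all genes lie at or below −1.58 by TMM factors and −2.01 by ERCC counts, and of the translation factor genes only EIF2B3. EIF4E1B at day 3 lies beyond the right edge.

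Over both days, with day as a term in the fit, more of these genes passed as lower than at either day alone. The same held for all genes, of which 9.91% were lower at day 3 and 0% at day 1. Of 79 tested, 27 were lower and 5 higher, against 16.2% and 20.4% of 18116 genes, and the median log2 fold change was −0.45 (all genes, 0.10). By ERCC scaling 64 were lower and 2 higher, against 38% and 7.1% of all genes. DESeq2 called 27 lower and 6 higher, against 14.7% and 26% of all genes, and with ERCC size factors 67 lower and 3 higher, against 38.4% and 9.45%. Below 0 lay 66 of 79 genes, against 46.6% of all genes. Of the 26 genes called at day 3, 21 were called here too, and 11 were called only here. Those 11 were *EIF4B*, *EIF3A*, *EIF3E*, *EIF3B* (ENSDARG00000059654), *EIF3H* (ENSDARG00000036116), *EIF3J* (ENSDARG00000053370), *EIF2S1* (ENSDARG00000005827), *eif2ak1*, *EEF1E1*, *EEF1AKMT1* and *EEF1AKMT4*, all lower. The 5 called at day 3 only were *EIF3D*, *EIF3M*, *EIF3K*, *EIF3J* (ENSDARG00000012603) and *EIF2S1* (ENSDARG00000052178).

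The largest falls over both days were in *EIF2B3*, *EIF3H* (ENSDARG00000036116) and *EIF2D*, with log2 fold changes of −1.90 (adjusted p = 0.000700), −1.82 (adjusted p = 0.00421) and −1.27 (adjusted p = 0.00281). *eif4e2rs1*, *EIF5A2* and *EIF2B1* followed with log2 fold changes of −1.13 (adjusted p = 0.00134), −1.09 (adjusted p = 0.00984) and −0.98 (adjusted p = 0.0115). *EIF6*, *EIF4A3*, *EIF1B* and *EIF2S2* had log2 fold changes of −0.97 (adjusted p = 0.00314), −0.93 (adjusted p = 0.00556), −0.93 (adjusted p = 0.00411) and −0.83 (adjusted p = 0.00830). These spanned eIF2 and its exchange factor, start codon choice, subunit joining, the exon junction and elongation. Of the eIF3 subunits 8 were lower, against 16.2% of all genes, with a median log2 fold change of −0.57. There were 4 without DMSO replicate 1 of day 3 and 14 without DMSO replicate 3 of day 1. The shares over all genes in these fits are not given here, so a general change in calls cannot be told apart. The 5 risers were the same genes as at day 3. *EIF4G3* (ENSDARG00000077215), *EEF2* and *EEF1A1* (ENSDARG00000039502) had log2 fold changes of 3.17 (adjusted p = 0.00512), 2.90 (adjusted p = 0.00244) and 2.25 (adjusted p = 0.00665). *EIF4EBP3* (ENSDARG00000041607) had a log2 fold change of 1.86 (adjusted p = 0.0320) and 1.16 without JQ1 replicate 2 of day 3, where it did not pass. *EIF4E1B* passed with adjusted p = 0.0377, but its only DMSO counts were 14 in replicate 3 of day 1. It again passed the filter on low counts only through the JQ1 libraries, so no support is drawn from its call here either. By ERCC scaling this *EIF4G3* gene and *EEF2* still passed, while *EEF1A1*, *EIF4EBP3* and *EIF4E1B* did not (adjusted p = 0.106, 0.274 and 0.141). Without DMSO replicate 1 or 3 of day 3 or without JQ1 replicate 2 of day 3, 3 genes were higher. The shares over all genes in these fits are not given here.

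Between the vehicle groups, DMSO at day 3 against DMSO at day 1, none of 78 translation factor genes passed in edgeR, and 0% of 14106 genes did. At an unadjusted p of 0.05, 1 was higher and 2 were lower (1.98% and 2.98% of all genes), DESeq2 called none of them (0.233% higher and 0.755% lower over all genes), and the median log2 fold change was 0.06 (all genes, −0.03). *EIF2B4* had the lowest p, with 239.6, 117 and 128 CPM in DMSO at day 3, against 612, 234 and 456 CPM in DMSO at day 1 (log2 fold change −1.49, adjusted p = 0.904). Single libraries of this gene differed by several fold within a group. *EIF4EBP3* (ENSDARG00000041607) and *EIF2B1* had log2 fold changes of −1.88 (adjusted p = 0.904) and 0.60 (adjusted p = 0.904).

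Whether the JQ1 effect differed between the days was tested by the interaction of treatment and day. None of 79 translation factor genes passed in edgeR, and 0% of 18116 genes did, while at an unadjusted p of 0.05 there were 1 higher and 5 lower at day 3 (3.62% and 3.34% of all genes). DESeq2 called none of them (0.0696% higher and 0.0882% lower over all genes), and with ERCC size factors it called 1 higher and none lower (4.81% and 0.0451%). The median of the day 3 effect minus the day 1 effect was −0.37 by TMM factors and 0.64 by ERCC counts (all genes, 0.04 and 1.198). For the eIF3 subunits it was −0.71 by TMM factors and 0.38 by ERCC counts, so its sign depended on the scale. The lowest p-values belonged to *EIF2S1* (ENSDARG00000052178), *EIF3K* and *EIF3D*, with log2 fold changes of −1.19 (adjusted p = 0.711), −0.81 (adjusted p = 0.711) and −1.01 (adjusted p = 0.711) by TMM factors. For *EIF3K* and *EIF3D* the sign was positive by ERCC counts, at 0.31 and 0.12.

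Genes outside the name rule that act on or beside these factors were counted from fixed lists, to be read against the 9.91% of all genes that were lower and the 15.3% that were higher at day 3 (23.5% and 11.3% by ERCC scaling). Of 19 cytosolic aminoacyl-tRNA synthetase genes, which charge tRNAs for elongation, 7 were lower with TMM factors and 17 by ERCC scaling, and none was higher. All 19 lay below 0 with both scalings, and the median log2 fold change was −0.73 by TMM factors. *LARS1*, *AARS1* and *TARS1*, for leucine, alanine and threonine, fell with log2 fold changes of −1.43, −0.99 and −0.98 (adjusted p = 0.023, 0.026 and 0.027). Of 9 mitochondrial translation factor genes 2 were lower, *MTIF2* with a log2 fold change of −1.93 (adjusted p = 0.022) and *MRRF* with −1.86 (adjusted p = 0.031), none was higher, and 4 were lower by ERCC scaling. Their median log2 fold change was −0.61 by TMM factors.

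Of 13 mTORC1 pathway genes, 2 were lower (*MTOR* and *rhebl1*, with log2 fold changes of −0.69 and −0.92) and 1 was higher, *TSC2*, an inhibitor of the pathway, with 0.87, which are counts near the shares over all genes, and the median log2 fold change was 0.12. By ERCC scaling 3 were lower and none higher, and *TSC2* had a log2 fold change of 0.42 (adjusted p = 0.153). Of 11 genes of the integrated stress response tested, which acts through phosphorylated eIF2, 1 was higher, *CEBPB* with a log2 fold change of 2.59 (adjusted p = 0.031), and none was lower (1 higher and 1 lower by ERCC scaling), and *atf4a* had −0.17 (adjusted p = 0.624). Of 9 cap and poly(A) partners of eIF4F tested, 1 was higher and none lower (1 higher and 3 lower by ERCC scaling), with a median log2 fold change of −0.32. Of 11 genes tested for termination, recycling and related factors, 2 were lower and none higher, with a median log2 fold change of −0.75, and 10 were lower by ERCC scaling. These last lists were matched for only 11 of 15 and 11 of 14 names.

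At day 1 no gene of the 6 lists passed with TMM factors, where 0.0443% of all genes were higher and 0% lower. By ERCC scaling, where 37.6% of all genes were lower at day 1, 15 of 19 synthetase genes, 9 of 9 mitochondrial factor genes, 9 of 12 termination and recycling genes, 7 of 13 mTORC1 pathway genes, 5 of 9 cap and poly(A) partners and 1 of 11 stress response genes were lower, and none was higher. Over both days with TMM factors, where 16.2% of all genes were lower and 20.4% higher, 9 of 12 termination and recycling genes, 10 of 19 synthetase genes, 5 of 9 mitochondrial factor genes and 4 of 13 mTORC1 pathway genes were lower and none was higher. The stress response list had 2 higher and 1 lower of 11, and the cap and poly(A) partners 2 higher and 2 lower of 10. By ERCC scaling over both days, where 38% of all genes were lower, 10 of 12 termination and recycling genes, 19 of 19 synthetase genes, 7 of 9 mitochondrial factor genes, 6 of 13 mTORC1 pathway genes, 6 of 10 cap and poly(A) partners and 2 of 11 stress response genes were lower, and none was higher.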

How the data were processed

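Treatment and day define 4 groups of 3 RNA-seq libraries. Per the study's methods, reads were stranded and paired, and the authors used STAR 2.5.2a with GRCz11, kept uniquely mapped reads and counted with featureCounts. Reads that paralogs share were thus dropped, and the strand setting of the counting is not given in the sources used here. The deposited table holds raw counts for 25743 features, namely 25607 zebrafish genes, 2 transgenes, 92 ERCC sequences and 42 receptor constructs, which were at 0. The authors' DESeq2 tables (mean counts, fold changes, p-values) were not used. Symbols were taken from a table of Ensembl identifiers.

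Zebrafish genes were filtered with filterByExpr, scaled by TMM factors and tested with edgeR 4.0.16 (glmQLFit, glmQLFTest, two-sided) in R 4.3.3, with Benjamini-Hochberg adjustment over all genes tested and a threshold of 0.05. Each day was fitted on its own 6 libraries, and both days together with day as a term or as an interaction. Alternatives were RLE factors, ERCC scaling, DESeq2 1.42.0 with its own or ERCC size factors, no filter, a replicate block, 1 fit of all 12 libraries and each library left out. The fits were tested on simulated counts with 200 changed genes. Standard errors were derived from the F statistic.

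The genes, the lists and the tests were chosen with earlier results of these data known. Genes given with values are those past the threshold with the largest changes (up to 10 in each direction, at least 10 CPM in the higher group) at day 3 and over both days, the 3 with the lowest p where none passed, and a fixed list, of which *eif4ea* and *eif4ebp3l* had no matching symbol. Other genes were named by role after their values were seen. A gene without counts was given a floor of 3 counts per library, 0.188 to 0.410 CPM, which covers counting error only. In a chi-square test of counts between replicates, the statistic was 38.8 to 131 times its degrees of freedom, so none was counted as a duplicate. Marker lists of which fewer than 80% of the genes were matched are not reported here. Day 1 is given by the sample labels, while the study's methods describe treatment for 3 days.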

Additional observations from a re-analysis of the deposited data

How the results depend on the processing

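At day 3 the count of lower translation factor genes was 48 with ERCC scaling and 53 with DESeq2 on ERCC size factors, against 23.5% and 25.3% of all genes. Leaving out 1 library at a time gave 0 to 5 higher and 0 to 17 lower. Without any one of the DMSO libraries no gene passed among all genes either. At day 1 the count of lower genes was 33 with ERCC scaling and 58 with DESeq2 on ERCC size factors, against 37.6% and 47.4% of all genes. DESeq2 gave 4 lower and 2 higher, against 3.83% and 7.73% of all genes. The count of lower genes was 1 with no filter and 4 with all 12 libraries in 1 fit. Leaving out 1 library gave 0 to 3 higher and 0 to 3 lower. Over both days ERCC scaling gave 2 higher and 64 lower, against 7.1% and 38% of all genes. DESeq2 on ERCC size factors gave 3 higher and 67 lower, against 9.45% and 38.4%. Leaving out 1 library gave 3 to 6 higher and 19 to 37 lower. For the change of the JQ1 effect, DESeq2 on ERCC size factors gave 1 higher, against 4.81% of all genes. The shares over all genes are not given here for the fits with no filter or with all 12 libraries together. They are also missing for most fits with 1 library left out. The counts from those fits show only how far the numbers moved. The cause of these differences was not tested.

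Replicate numbers did not pair the libraries, with correlations of −0.262 to 0.134 between libraries of the same number. With the replicate number as a block, 0 genes were higher and 0 lower at day 3, also over all genes. At an unadjusted p of 0.05, 5 translation factor genes were higher and 40 lower at day 3 under the block. Over both days 5 passed as higher and 25 as lower. Shares over all genes are not given here for these last counts, which thus do not set the translation factor genes apart.

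Signs changed in few genes. The change of the JQ1 effect was 0.31 for *EIF3K* and 0.12 for *EIF3D* with ERCC scaling and the same with DESeq2 on ERCC size factors. *EIF2AK3* at day 3 had −0.40 with both of these, −0.054 with no filter, −0.021 with all 12 libraries in 1 fit and −0.44 to 0.37 with 1 library left out. *eif4ebp1* at day 3 had −0.27 with ERCC scaling and with DESeq2 on ERCC size factors, and *eif2ak2* had −0.42 to 1.29 with 1 library left out. Among the other settings of single genes, 294 values kept direction and side of the threshold, 21 no longer passed and 22 newly passed. With 1 library left out, 339 kept both, 70 no longer passed and 2 newly passed. Depth limits what can be said of *EIF4E1B* and of the 5 genes that could not be tested.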

Other observations

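Several genes that share a symbol or a family differed in their values at day 3. *EIF4G3* (ENSDARG00000077215) had a log2 fold change of 3.25 and *EIF4G3* (ENSDARG00000074331) 0.12, *EEF2* had 3.26 and *eef2b* −0.38, and *EEF1A1* (ENSDARG00000039502) had 2.39 and *eef1a1l1* −0.25. *EIF4EBP3* (ENSDARG00000041607) had 3.05 and *eif4ebp3* (ENSDARG00000054916) −0.32. These pairs were picked from the genes that were higher. In each of them the gene with the fewer counts over all libraries was the one that passed as higher. The *EIF4EBP3* pair differed little in this, with 2297 and 2573 counts. Another scarce relative, *eef2a.2*, with 636 counts against 2098 in *EEF2*, had −0.0047 and did not pass. *EEF1A1* (ENSDARG00000069951), with 98 counts against 933 in *EEF1A1* (ENSDARG00000039502), could not be tested. At day 3 it had 1.45, 2.57 and 0.712 CPM in JQ1, against 0.345, 0.546 and 0 CPM in DMSO. Of all genes tested, 24.8% likewise had all JQ1 libraries above the DMSO libraries. The differences within pairs were not tested.

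*EIF2B4*, the delta subunit of eIF2B, varied widely among animals. It had 359, 47.8 and 134 CPM in JQ1 at day 3, against 239.6, 117 and 128 CPM in DMSO at day 3. At day 1 it had 226, 185 and 305 CPM in JQ1, against 612, 234 and 456 CPM in DMSO.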
